A study of Mus musculus with 4 samples.

Results

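The genes described here are 41 genes of the cell cycle and of DNA replication, read on 2-colour Agilent arrays from otocysts of mouse embryos at E10.5. They comprise 20 genes of mitosis, 12 genes of S phase and 9 genes of G1 to S control. Each was found by its gene name on the array, and where several probes carried the name, the brightest probe kept was used. Of the 41, 39 were tested among 18409 genes in all: 19 of mitosis, 12 of S phase and 8 of G1 to S control. The probe for Aurkb, a mitotic kinase, was not well above background on any of the 4 arrays in mutants or controls. The probe for Ccne2, a partner of Cdk2, was well above background on 1 of 4 arrays in mutants and on 1 of 4 in controls. These 2 genes were not kept, and each of the 39 others cleared the background flag in every mutant and every control sample.

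The mutants (Tbx2/3cDKO) carried Pax2-cre and were Tbx2(fl/fl) and also Tbx3(fl/fl): the cre, driven by Pax2 sequence in the otic region, recombines the floxed copies of these 2 genes of T-box transcription factors. The controls were Tbx2(fl/?) and Tbx3(fl/?), with no cre named, and their labels do not give the second copy of either gene. Both genotypes were on the NMRI strain, both carried floxed alleles of Tbx2 and Tbx3, and both were sampled as otocysts dissected mechanically at E10.5. Each array received the RNA of 1 mutant and 1 control sample, both female on replicates 1 and 2 and both male on replicates 3 and 4, with the dyes swapped within each sex. The labels do not tell single embryos from pools, so every p-value here measures the spread of these samples alone, which may be technical. The sex labels fitted the data in the main. Xist, read from the inactive X chromosome, had log2 levels of 6.36 and 7.56 in male mutants and 6.31 and 6.62 in male controls, against 9.36 to 9.53 in all female samples. Y-linked Eif2s3y was at 10.42 to 11.01 in male samples, and among female samples it was higher on replicate 2 (6.82 in the mutant, 7.02 in the control) than on replicate 1 (5.97 in the mutant, 6.19 in the control). Replicate 2 and the mutant sample of replicate 4 thus held some signal of the other sex's gene, and where a call below is lost without either replicate, this is said beside it.

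The otocyst is the epithelial vesicle that becomes the inner ear, and its cells proliferate while neuroblasts leave it to form the ganglion. In a dividing cell, D-type cyclins with Cdk4 or Cdk6 and E-type cyclins with Cdk2 phosphorylate the retinoblastoma proteins, which frees E2F factors to drive the genes of DNA synthesis. Genes of S phase then load and fire replication origins and supply nucleotides, and genes of mitosis, many of them transcribed later through CHR and CCAAT elements, condense, align and part the chromosomes. Tbx2 and Tbx3 are mostly repressors of transcription and are known in other tissues and tumours for holding cells in the cycle by repressing inhibitors of cyclin-dependent kinases.

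Promoters of the S-phase and the mitotic genes carried different short motifs, and 5 promoters are printed to show them beside the expression values. RefSeq promoters (build GRCm38.p6, from 250 bases before to 50 bases after the first-listed start) were at hand for 34 of the 41 genes. Those of Aurkb, Ccna2, Ccnd2, Ccne2, Kif20a, Mcm4 and Tpx2 were not used here. In capitals are matches to 3 motifs, each searched on both strands, with the reverse complement shown where the match lies on the other strand. The E2F-type motif was searched as TTGGCGC, also with a cytosine in the middle as TTGCCGC, and also in the TTC form as TTCGCGC and with a further cytosine as TTCCCGC. The CHR-type motif was searched as TTTGAA and with a central CG as TTCGAA, and the CCAAT motif by its own letters. Matches may overlap, as the joined capitals of Mcm6 show.
Mcm2 (chr6:88898731-88899030, minus strand): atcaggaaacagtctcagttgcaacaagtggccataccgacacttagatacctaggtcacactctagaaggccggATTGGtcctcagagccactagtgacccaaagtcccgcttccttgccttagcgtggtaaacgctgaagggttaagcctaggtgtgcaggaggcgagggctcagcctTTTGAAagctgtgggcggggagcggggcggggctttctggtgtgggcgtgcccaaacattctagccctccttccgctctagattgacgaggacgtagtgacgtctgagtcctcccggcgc
Rrm2 (chr12:24708004-24708303, plus strand): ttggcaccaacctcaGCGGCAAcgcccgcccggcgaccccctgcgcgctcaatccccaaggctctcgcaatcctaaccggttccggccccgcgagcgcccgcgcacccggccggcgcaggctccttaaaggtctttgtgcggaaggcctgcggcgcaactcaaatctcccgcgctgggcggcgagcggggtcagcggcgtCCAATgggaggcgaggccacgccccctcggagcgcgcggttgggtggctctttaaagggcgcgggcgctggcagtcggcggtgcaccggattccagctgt
Mcm6 (chr1:128359656-128359955, minus strand): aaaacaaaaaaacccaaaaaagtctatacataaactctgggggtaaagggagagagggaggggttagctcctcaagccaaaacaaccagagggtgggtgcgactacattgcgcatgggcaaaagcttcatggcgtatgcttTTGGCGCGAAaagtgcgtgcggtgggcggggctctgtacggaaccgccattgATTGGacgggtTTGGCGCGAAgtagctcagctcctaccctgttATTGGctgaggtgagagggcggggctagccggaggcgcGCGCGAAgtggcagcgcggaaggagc
Ccnb2 (chr9:70421505-70421804, minus strand): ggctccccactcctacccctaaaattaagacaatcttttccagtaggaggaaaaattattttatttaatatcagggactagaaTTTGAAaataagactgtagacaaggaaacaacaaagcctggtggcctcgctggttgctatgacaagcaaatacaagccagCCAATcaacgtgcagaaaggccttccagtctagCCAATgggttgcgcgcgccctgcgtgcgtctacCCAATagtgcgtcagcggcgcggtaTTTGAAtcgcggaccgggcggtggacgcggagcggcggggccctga
Cdk1 (chr10:69352863-69353162, minus strand): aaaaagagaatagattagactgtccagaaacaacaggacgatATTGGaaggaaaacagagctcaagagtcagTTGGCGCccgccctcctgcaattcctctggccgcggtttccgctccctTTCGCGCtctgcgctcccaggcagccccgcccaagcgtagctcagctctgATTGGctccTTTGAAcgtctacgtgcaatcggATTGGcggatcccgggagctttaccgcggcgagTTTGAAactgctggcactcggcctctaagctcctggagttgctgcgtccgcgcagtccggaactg
Mcm2 and Rrm2 are shown because they were the S-phase genes that passed the test, Mcm6 because its promoter holds 5 E2F-type matches, and Ccnb2 and Cdk1 because they hold CHR and CCAAT matches together, and Cdk1 holds 2 E2F-type matches as well.

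An E2F-type match lay in 8 of 11 S-phase promoters (72.7%), in 3 of 16 mitotic promoters (18.8%), in 2 of 7 G1 to S control promoters (28.6%) and in 9.69% of all 27025 promoters of the same length. A CHR-type match lay in 13 of 16 mitotic promoters (81.2%), in 2 of 11 S-phase promoters (18.2%), in 0 of 7 G1 to S control promoters and in 19.4% of all promoters. CCAAT lay in 15 of 16 mitotic promoters (93.8%), in 8 of 11 S-phase promoters (72.7%), in 2 of 7 G1 to S control promoters (28.6%) and in 37.9% of all promoters. CHR and CCAAT matches lay together in 13 of 16 mitotic promoters and 7.7% of all. A match describes letters in this window and is neither a binding site nor a cause, and GC content differed too, with a median of 59.0% over these genes and 52.7% over all promoters. By expression, the 13 genes with an E2F-type match had a median log2 ratio of mutant over control of 0.04, and the 15 with CHR and CCAAT matches had a median of 0.01. The medians over all tested genes with those promoters were both 0.00, over 1867 and 674 genes.

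Across the 39 genes the genotypes were close to each other. The log2 ratio of mutant over control, from limma's fit of all genes, had a median of 0.02 over these genes and of 0.00 over all 18409 genes, and it ranged from -0.14 to 0.55. Past an adjusted p of 0.05 (limma with Benjamini-Hochberg over all genes tested), 3 genes were higher in the mutants: Ccnd2, Mcm2 and Rrm2. None was lower by that test, and at an unadjusted p under 0.05 in limma 6 were higher and 2 lower. Of all genes tested, 23.6% were called, 13.5% higher and 10.1% lower, and 35.4% had an unadjusted p under 0.05. Among the 17233 genes that cleared the background flag in every sample, as these 39 did, 22.8% were called. None of the 39 had a fitted ratio of 1.5-fold or more either way, against 970 of all genes (5.27%). The 95% confidence interval of the ratio lay wholly within a 25% change either way (a log2 ratio of 0.32) for 37 of 39, all but Ccnd2 and Ccna2, and for 70.9% of all genes. The ratio had 1 sign on all 4 arrays for 12 of these genes, 7 positive and 5 negative (30.8%), against 41.6% of all genes (21.6% positive and 19.9% negative).

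**Figure D1:**
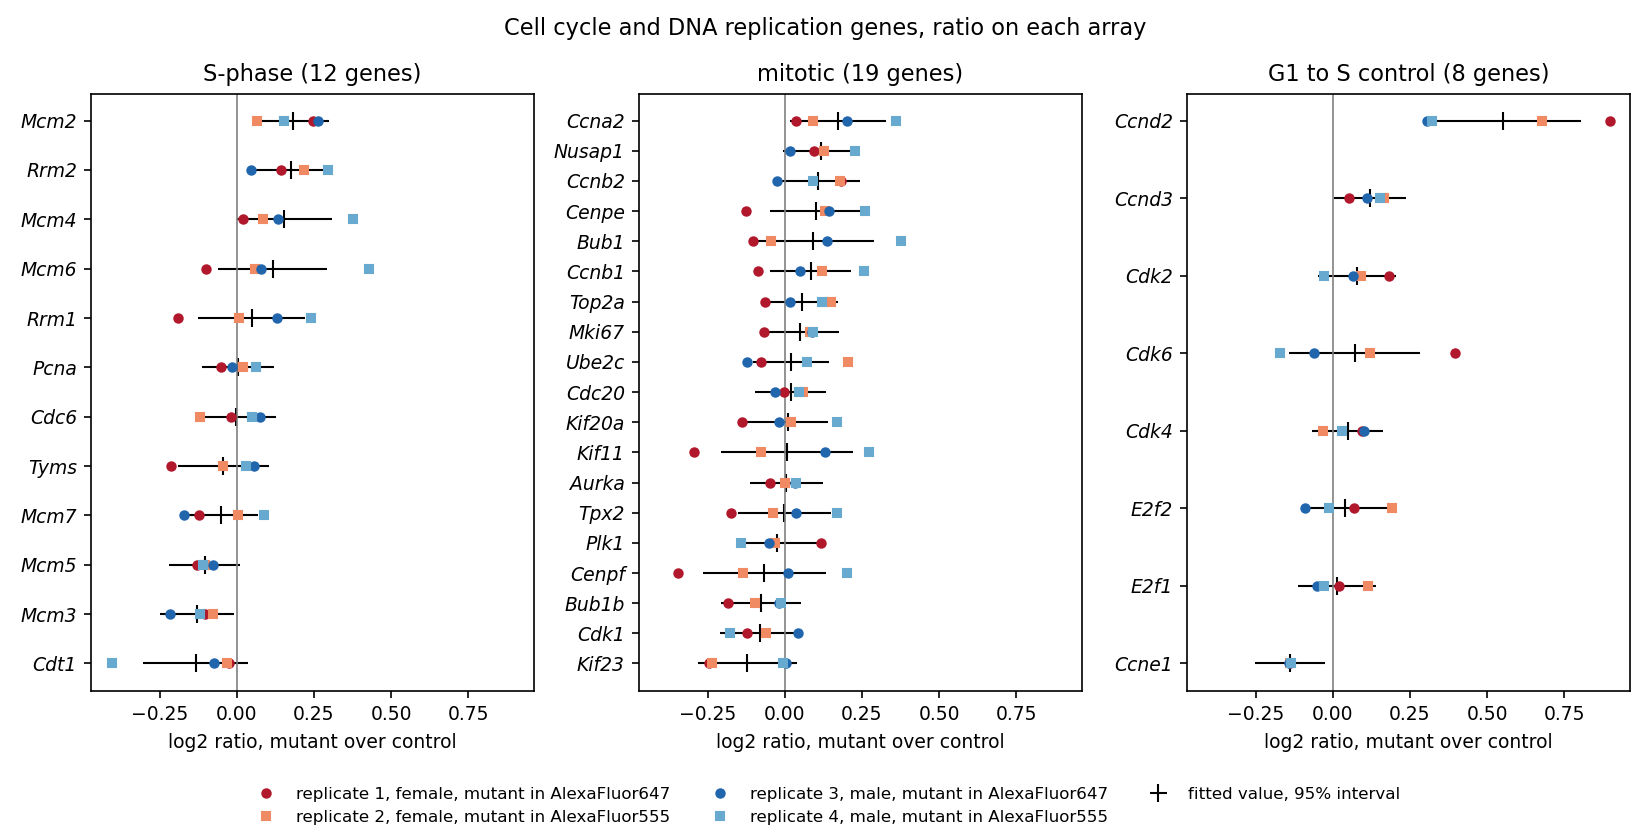
Log2 ratio of mutant over control (horizontal axis) on each of the 4 arrays for the 39 cell-cycle genes, in panels for S phase, mitosis and G1 to S control, with coloured points for the replicates and, for the fit, a tick at the ratio and a line for its 95% confidence interval. Ccnd2 lies apart at 0.55, and the intervals of 37 genes stay within a 25% change either way.

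Among the genes of G1 to S control, Ccnd2 changed most. It encodes cyclin D2, a partner of Cdk4 and Cdk6. Its probe lies on chr6:127098696-127098755 (mm9 per the files, minus strand), and its 60 bases are printed because this 1 probe carries the largest value of the group.
Ccnd2 probe: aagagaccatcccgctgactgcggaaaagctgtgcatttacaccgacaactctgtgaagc
The log2 level of Ccnd2 was 15.21, 15.27, 15.04 and 15.06 in the mutants on replicates 1 to 4, against 14.32, 14.59, 14.74 and 14.74 in the controls. Every mutant sample lay above every control sample, and the females were further apart than the males. The log2 ratios were 0.90, 0.68, 0.31 and 0.32. The fitted ratio was 0.55 ± 0.29 (SD, n = 4; SE 0.11), or 1.46-fold, with a 95% interval from 1.23-fold to 1.75-fold and an adjusted p of 0.011 in limma. The ratio averaged 0.31 in males and 0.79 in females, a difference of -0.47 with an adjusted p of 0.137 in limma's sex interaction term.

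Another D-type cyclin, Ccnd3, had log2 ratios of 0.05, 0.16, 0.11 and 0.15 (mean 0.12 ± 0.05 SD, n = 4; limma adjusted p = 0.129). All 4 were positive and smaller than a 25% change. The dimmer second probe of Ccnd3 gave a fitted ratio of 0.04, with -0.02 on replicate 2. The kinases that D-type cyclins bind gave no call. Cdk4 had ratios of 0.09, -0.03, 0.10 and 0.03, with a limma adjusted p of 0.537, and its 3 probes gave fitted ratios from -0.06 to 0.05. Cdk6 had ratios of 0.40 and 0.12 in females and -0.06 and -0.17 in males (0.07 ± 0.25 SD, n = 4; limma adjusted p = 0.627). Its mutant samples were the higher ones in females and the lower ones in males, a difference between sexes of -0.37 with an adjusted p of 0.16 in limma. Cdk6 was dim, with a log2 level of 7.19 ± 0.14 in mutants and 7.12 ± 0.15 in controls (SD, n = 4 each).

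Ccne1, which encodes cyclin E1, the partner of Cdk2 at the start of S phase, had the most even ratio of the group, -0.14 on each of the 4 arrays. Its levels were 13.80, 13.81, 13.71 and 13.68 in mutants, against 13.94, 13.95, 13.85 and 13.81 in controls. The mutant sample was the lower one on every array, yet the levels of the genotypes overlapped between arrays. The fitted interval ran from -0.25 to -0.02 with an adjusted p of 0.0846 in limma, so it did not pass, and its dimmer second probe gave -0.27. Cdk2 itself had ratios of 0.18, 0.09, 0.07 and -0.03 (limma adjusted p = 0.352). E2f1 had ratios of 0.02, 0.11, -0.05 and -0.03, and E2f2 had ratios of 0.07, 0.19, -0.09 and -0.01, both E2F activators of S-phase genes. Neither passed, and both were positive in females and negative in males. Of the 8 genes of this group tested, 1 was higher and 0 lower, and at an unadjusted p under 0.05 in limma 2 were higher and 1 lower.

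Among the 12 S-phase genes, 2 were higher in the mutants and 0 lower, and at an unadjusted p under 0.05 in limma 3 were higher and 1 lower. The median log2 ratio of the group was 0.00, with 6 genes positive and 6 negative, and all 12 intervals lay within a 25% change. The genes that passed were a helicase subunit and a nucleotide reductase subunit. Mcm2, a subunit of the MCM helicase that unwinds the origin, had log2 levels of 13.37, 13.47, 13.57 and 13.65 in mutants, against 13.12, 13.40, 13.31 and 13.49 in controls. The mutant sample was the higher one on every array, and the genotypes overlapped between arrays. Its ratios were 0.25, 0.07, 0.26 and 0.15, with a fit of 0.18 ± 0.09 (SD, n = 4; SE 0.05), or 1.13-fold, and an adjusted p of 0.0398 in limma. Rrm2, the small subunit of ribonucleotide reductase, had levels of 15.55, 15.45, 15.39 and 15.55 in mutants, against 15.41, 15.23, 15.34 and 15.25 in controls. Again the mutant sample was the higher on every array, by 0.14, 0.22, 0.05 and 0.29. The fit was 0.18 ± 0.11 (SD, n = 4; SE 0.05), or 1.13-fold, with an adjusted p of 0.0492 in limma. Both values sit near the threshold: each was called under 6 of 16 alternative settings, and neither without replicate 1, 2, 3 or 4 (adjusted p in limma up to 0.260 for Mcm2 and 0.365 for Rrm2).

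The other subunits of the same helicase did not share a sign. Mcm4 had ratios of 0.02, 0.09, 0.13 and 0.38, and Mcm6 had -0.10, 0.06, 0.08 and 0.43, with limma adjusted p of 0.141 and 0.319. For both, replicate 4 gave the highest value. Mcm4 was called higher in limma without replicate 2 and with a sex term added. Mcm3 had -0.10, -0.08, -0.22 and -0.12 (-0.13 ± 0.06 SD, n = 4; limma adjusted p = 0.121). Mcm5 had -0.13, -0.10, -0.08 and -0.11 (-0.10 ± 0.02 SD, n = 4; limma adjusted p = 0.179). Mcm3 and Mcm5 were negative on every array, and for Mcm5 the levels did not overlap: 14.78, 14.69, 14.74 and 14.71 in mutants, against 14.91, 14.79, 14.82 and 14.82 in controls. Levels did not overlap for 3 of the 39 genes (Ccnd2, Mcm5 and Nusap1), against 23.3% of all genes tested. Mcm7 had -0.12, 0.00, -0.17 and 0.09 (limma adjusted p = 0.528), with both signs.

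The remaining S-phase genes had no call. Pcna, the sliding clamp of DNA polymerase, had ratios of -0.05, 0.02, -0.01 and 0.06, with levels of 15.13, 15.36, 15.41 and 15.48 in mutants, against 15.19, 15.34, 15.43 and 15.42 in controls. The levels of Pcna interleaved, and its limma adjusted p was 0.964. Rrm1, the large subunit of ribonucleotide reductase, had -0.19, 0.01, 0.13 and 0.24. Cdt1, a licensing factor that loads the helicase, had -0.02, -0.03, -0.07 and -0.41 (-0.13 ± 0.18 SD, n = 4; limma adjusted p = 0.235). Its negative mean rests mostly on replicate 4, and Cdt1 was called lower in limma without replicate 2. Cdc6, which acts with Cdt1, had a fitted ratio of -0.0031, with -0.14 at its dimmer second probe, and Tyms, the thymidylate synthase, one of -0.04.

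**Figure D2:**
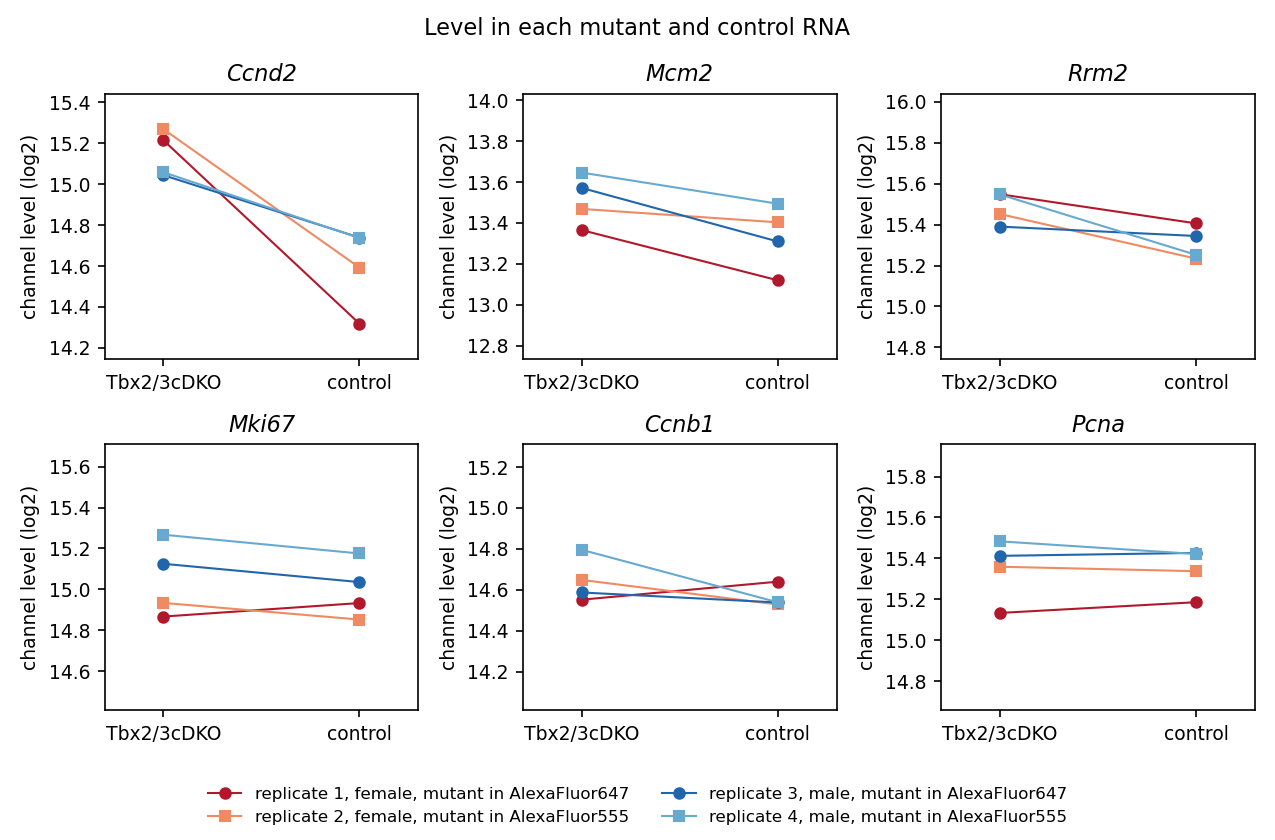
Log2 channel level (vertical axis) of Ccnd2, Mcm2, Rrm2, Mki67, Ccnb1 and Pcna in each mutant sample and each control sample, with lines joining the pair on an array. For Ccnd2 the 4 mutant samples, from 15.04 to 15.27, lie above the 4 control samples, from 14.32 to 14.74, and for the other genes shown the gap is smaller.

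Among the 19 mitotic genes tested, none passed in either direction in limma, and at an unadjusted p under 0.05 1 was higher (Ccna2) and 0 lower. Their median log2 ratio was 0.02, 13 were positive and 6 negative, and 18 of 19 intervals lay within a 25% change. Ccna2, the A-type cyclin of S phase and early mitosis, had ratios of 0.04, 0.09, 0.20 and 0.36 (0.17 ± 0.14 SD, n = 4; limma adjusted p = 0.108). Its levels were 14.21, 14.06, 14.24 and 14.41 in mutants, against 14.17, 13.97, 14.03 and 14.05 in controls. The mutant was the higher one on each array, with the largest gap on replicate 4. Ccna2 was called higher in limma without replicate 2 and with a sex term added. Ccnb2 had 0.18, 0.18, -0.02 and 0.09 (limma adjusted p = 0.233), and Ccnb1 had -0.09, 0.12, 0.05 and 0.26 (limma adjusted p = 0.329). Both are B-type cyclins, and each had 1 array of the other sign. The 3 probes of Ccnb1 did not share a sign, with fitted ratios from -0.11 to 0.08, the brightest of them the positive one. Cdk1, the kinase they activate, had -0.12, -0.06, 0.04 and -0.18, and its 3 probes gave fitted ratios from -0.08 to -0.06.

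Mki67, the usual marker of cycling cells, had ratios of -0.07, 0.08, 0.09 and 0.09 (0.05 ± 0.08 SD, n = 4). Its levels were 14.87, 14.93, 15.12 and 15.27 in mutants, against 14.93, 14.85, 15.04 and 15.18 in controls. These levels interleave, and the 95% interval of the ratio, from -0.08 to 0.17, includes 0 (limma adjusted p = 0.563). Top2a, the topoisomerase that untangles chromosomes before they part, had -0.06, 0.15, 0.02 and 0.12 (limma adjusted p = 0.477). Neither gene was called. In bulk tissue the number of cycling cells and the RNA per cycling cell cannot be told apart, and these ratios do not separate them.

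Genes of the spindle and its checkpoint gave both signs. Nusap1, a spindle microtubule protein, had 0.09, 0.13, 0.02 and 0.23 (limma adjusted p = 0.155), with levels of 13.20, 13.21, 13.20 and 13.39 in mutants, against 13.11, 13.08, 13.18 and 13.17 in controls. Its levels did not overlap, although the smallest gap, on replicate 3, was 0.02. Cenpe, a kinetochore motor, had -0.13, 0.13, 0.14 and 0.26 (limma adjusted p = 0.305). Kif23, a motor of the central spindle, had -0.25, -0.24, 0.00 and -0.01 (limma adjusted p = 0.253). Bub1b, a checkpoint kinase, was negative on every array, with -0.18, -0.10, -0.02 and -0.01 (limma adjusted p = 0.361). At the brightest probe of each, the fitted ratios of Plk1, Tpx2, Aurka, Kif20a, Cdc20 and Ube2c lay between -0.03 and 0.02. These are kinases, a motor, a spindle factor and anaphase factors. The dimmer second probes of Tpx2 and Ube2c gave -0.06 and 0.05.

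Several mitotic genes had ratios of opposite sign in the sexes. Kif11, the motor that separates spindle poles, had ratios of 0.13 and 0.27 in males and -0.29 and -0.08 in females. Its mutant levels were 12.08 and 12.29 in males and 11.63 and 11.79 in females, against control levels of 11.95 and 12.02 in males and 11.92 and 11.87 in females. Cenpf, a kinetochore protein, had 0.01 and 0.20 in males and -0.35 and -0.13 in females. Bub1, a checkpoint kinase read from 10 spots per array, had 0.14 and 0.38 in males and -0.10 and -0.05 in females. The male minus female differences were 0.39 for Kif11, 0.35 for Cenpf and 0.33 for Bub1, with adjusted p of 0.149, 0.164 and 0.189 in limma's interaction term. Over the 39 genes, 7 were positive in males and negative in females on all arrays and 3 the reverse. The share of all genes with such signs is not given here, so these counts are not read as a trait of this group. None of the 39 passed the interaction test in limma, 10 had an unadjusted p under 0.05, and of all genes 0.0109% passed and 15.6% had an unadjusted p under 0.05. That fit has 1 residual degree of freedom, and each sex is represented by 1 pair of arrays.

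The comparison of S-phase with mitotic genes asks whether the genotypes differed more in one stage of the cycle than in the other. The median log2 ratio of the S-phase genes was -0.08, 0.01, 0.05 and 0.07 on replicates 1 to 4, and that of the mitotic genes was -0.09, 0.02, 0.02 and 0.12. The groups followed each other from array to array, with their lowest medians on replicate 1 and their highest on replicate 4. S-phase minus mitotic, the differences were 0.01, -0.02, 0.03 and -0.05, a mean of -0.0043 ± 0.04 (SD, n = 4). The difference was smaller than its spread over the arrays and had both signs. The genes of G1 to S control had medians of 0.08, 0.12, 0.01 and -0.02 and thus ran the other way. The medians of all genes stayed between -0.0015 and 0.0091 on the 4 arrays.

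**Figure D3:**
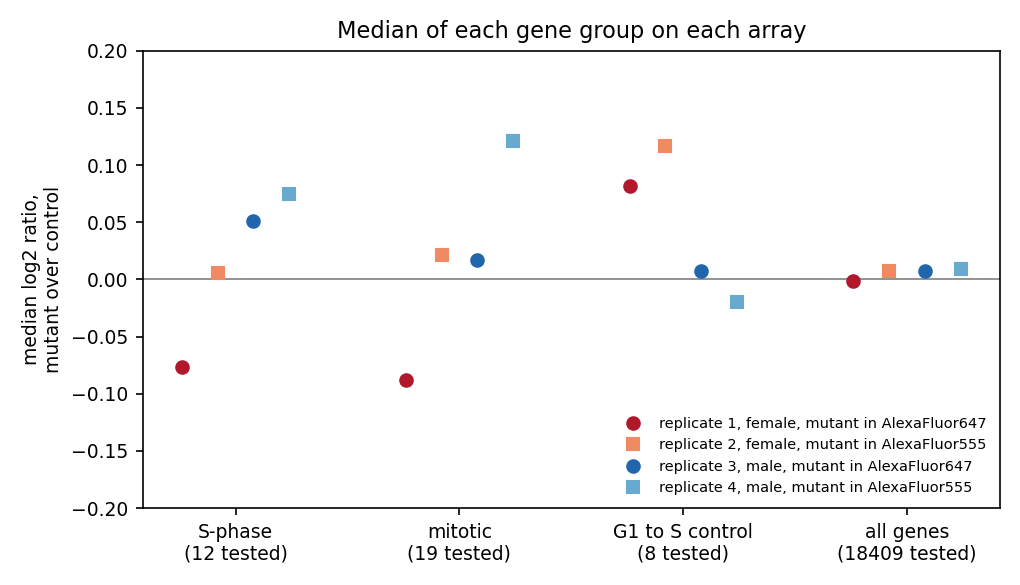
Median log2 ratio of mutant over control (vertical axis), 1 point for each of the 4 arrays for the genes of S phase, of mitosis, of G1 to S control and for all genes tested. The S-phase and mitotic medians follow each other, lowest on replicate 1 and highest on replicate 4, within 0.05 of each other.

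These array-to-array shifts ran along sex and, for the mitotic genes by as much, along dye. Male minus female, the gap was 0.10 for mitotic genes, 0.10 for S-phase genes and -0.11 for G1 to S control. Mutant in red minus mutant in green, it was -0.11, -0.05 and -0.0040 in the same order. Averaged by sex, the mitotic median was 0.07 in males and -0.03 in females, the S-phase median was 0.06 in males and -0.04 in females, and the G1 to S control median was -0.01 in males and 0.10 in females. With the mutant RNA in red or in green, the mitotic median was -0.04 and 0.07, and the S-phase median was -0.01 and 0.04. With 1 array for each sex and dye, the part of either in these shifts was not tested. Across the 39 genes, the ratios of 2 arrays correlated at 0.792 within females and 0.637 within males, and at 0.0389 to 0.366 between the sexes. Over all genes the same correlations were 0.857 within females, 0.767 within males and 0.662 to 0.817 between the sexes. Without Ccnd2 the 38 others correlated at 0.593 within females, 0.619 within males and -0.154 to 0.300 between the sexes. These are correlations across genes that share their arrays, given as descriptions, and genes are not independent replicates.

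In a wider set of 126 cell-cycle genes that are not among the 41, 3 were higher and 3 lower in limma, with a median log2 ratio of 0.02. Of 47 further genes of replication origins and forks, 0 were higher and 2 lower, and at an unadjusted p under 0.05 in limma 2 were higher and 4 lower. Prim2, the large subunit of DNA primase, stood apart, with ratios of -1.49, -1.34, -1.46 and -1.42 (-1.43 ± 0.07 SD, n = 4; limma adjusted p = 1.33e-05). Its log2 level averaged 10.94 in mutants and 12.37 in controls. This value comes from a single probe, and it was called under all 16 alternative settings. Gmnn, which encodes geminin, the inhibitor of Cdt1, had -0.22, -0.20, -0.24 and -0.08 (limma adjusted p = 0.0415), and it was called under 9 of 16 settings and not without replicate 1, 2 or 3.

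Of 53 further genes of the spindle, kinetochore and cytokinesis, 3 were higher and 1 lower. Ncapd2 and Ncapg, subunits of the condensin complex that compacts chromosomes, were both higher. Ncapd2 had 0.53, 0.33, 0.50 and 0.34 (0.43 ± 0.11 SD, n = 4; limma adjusted p = 0.00111) and was called under all 16 settings. Ncapg had 0.05, 0.23, 0.27 and 0.71 (0.32 ± 0.28 SD, n = 4; limma adjusted p = 0.0417), highest on replicate 4. It was called under 10 of 16 settings (log2 ratios of 0.20 to 0.44 and limma adjusted p up to 0.207). The call was lost without replicate 1, 3 or 4, with the scanner software's ratios, with the deposited value table and with separate channels. Spc25, a kinetochore subunit, had 0.10, 0.28, 0.12 and 0.28 (limma adjusted p = 0.0262). It was called under 11 of 16 settings and not when any 1 replicate was left out or with median centring. Bub3, a checkpoint protein, had -0.34, -0.15, -0.41 and -0.13 (limma adjusted p = 0.0101) and was not called without replicate 1 or 3. Of 26 further genes of the E2F and Rb families and the checkpoints, none was called in limma, and at an unadjusted p under 0.05 3 were higher and 0 lower. Their median was 0.04, and at the brightest probe of each their range ran from -0.13 for E2f4 to 0.27 for Rb1. The dimmer second probe of Rbl1 gave 0.56, against -0.0012 at its brightest. That of E2f7 gave -0.12, against 0.15 at its brightest.

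Of 7 listed inhibitors of cyclin-dependent kinases, 5 were tested, since the probes for Cdkn2a and Cdkn2b were too dim to be kept. Cdkn2c was higher in mutants, with a log2 ratio of 0.28 ± 0.05 (SD, n = 4; limma adjusted p = 0.00796). Cdkn1a was lower, with -0.27 ± 0.11 (SD, n = 4; limma adjusted p = 0.0136). Both were called under 14 of 16 settings, Cdkn2c not without replicate 1 or 3 and Cdkn1a neither without replicate 3 nor with the mean of its probes, which gave -0.16.

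Other measurements on the same arrays moved with the genotype. Tbx3 was lower in the mutants, by a log2 ratio of -3.43 ± 0.16 (SD, n = 4; limma adjusted p = 4.34e-06), while the Tbx2 probe gave 0.06 ± 0.23 (limma adjusted p = 0.650) and checks the deletion only if it lies in the deleted part, which was not given in the sources used here. Of 13 otic epithelial markers, 9 were lower and 1 higher in mutants (median -0.32), with summed linear levels of 122281 to 140218 in mutants, against 219819 to 241506 in controls. Markers of other cells were higher in mutants: neurons in 10 of 11 genes (23867 to 29008 in mutants, 15182 to 16754 in controls) and erythroid cells in 9 of 9 (1062830 to 1149650 in mutants, 355633 to 559095 in controls). Endothelial markers were higher in 9 of 9 (22441 to 24187 in mutants, 15106 to 16916 in controls), and markers of periotic mesenchyme in 7 of 10 tested (76290 to 85741 in mutants, 63784 to 72032 in controls). Macrophage markers were higher in 4 of 6 tested (2922 to 4246 in mutants, 2388 to 2677 in controls). Hindbrain markers gave 1 higher and 1 lower of 3 tested (1815 to 2164 in mutants, 1921 to 2231 in controls), with Hoxb1, Pax6 and Pax7 not above background in any sample. The part of these cell types in the ratios of the cell-cycle genes was not tested.

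**Figure D4:**
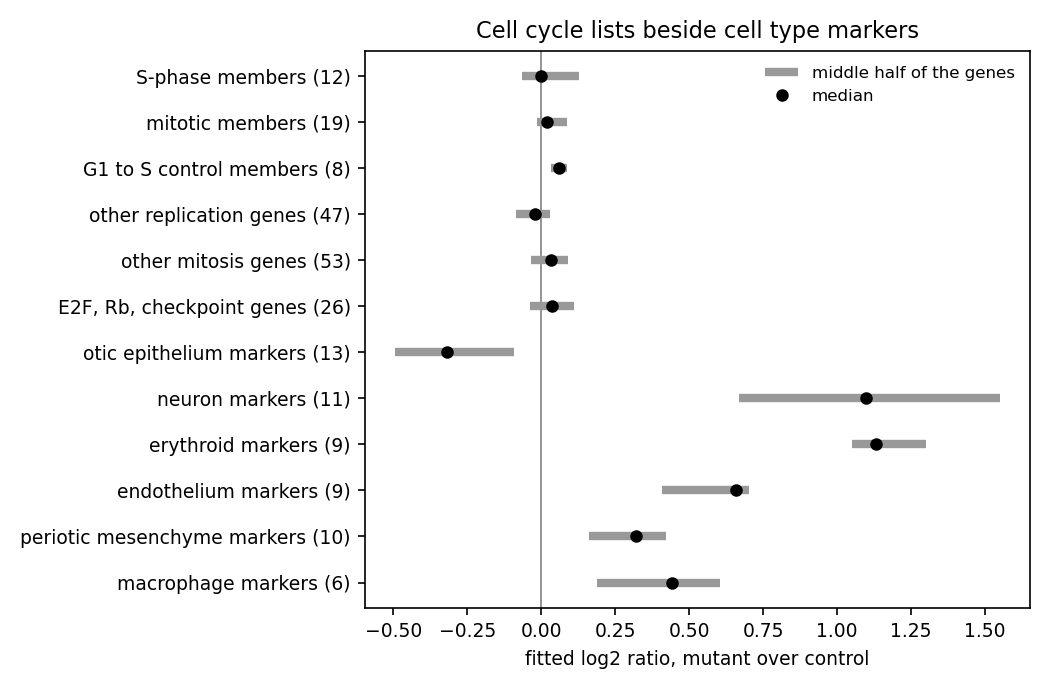
Fitted log2 ratio of mutant over control (horizontal axis) for lists of cell-cycle genes and of cell type markers, with a point at each list's median and a bar over its middle quartiles; the number of genes tested is in brackets. The medians of the cell-cycle lists lie between -0.02 and 0.06, those of otic epithelial markers at -0.32 and those of erythroid markers at 1.13.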

How the data were processed

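Per the labels' protocols, total RNA was amplified and dye-labelled. Mutant RNA carried AlexaFluor647 (red) on replicates 1 and 3 and AlexaFluor555 (green) on replicates 2 and 4. Agilent Feature Extraction 10.7.3.1 gave the spot intensities (per the submitters' processing notes and the deposited files' headers). Per the file headers, the same software made the log10 ratios of red over green from signals it had corrected for background and dye. The authors' deposited value table holds a score for each probe, a signed fold ratio, which, turned to log2, lay within 0.001 of the scanner's for 90.8% to 93.3% of 39429 probes. The median of each of its columns was 1, its direction was that of the dye labels, and what was done to the other values is not known here. All arrays lay on 1 slide scanned together, so no slide batch could be tested. Between 58.4% and 63.2% of spots were well above background and 0 were saturated, and precision is limited by there being 4 arrays.

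Mean intensities were corrected by normexp (offset 50) and normalized within arrays by loess, control spots at weight 0, in limma 3.58.1 (R 4.3.3, statmod 1.5.0). Non-uniform spots (21 to 32 per array) were left out and spots of a probe averaged. Probes flagged well above background on 3 or more of the 4 arrays in either genotype were kept (23202), and the brightest per gene was used. Names came from RefSeq (GRCm38.p6) by accession (26412 probes), symbol (3854) or synonym (735), and 8428 kept the file's name. Probe coordinates are those of the files (mm9), and promoter coordinates are those of GRCm38.p6.

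In limma, lmFit and eBayes were run on the ratios (4.59 prior and 2 residual degrees of freedom), genotype coded by dye orientation, with a dye term, Benjamini-Hochberg over 18409 genes and a threshold of 0.05. The array pairs the mutant and control RNA. SDs of the 4 ratios include the dye effect. Log2 levels are channel values after loess and Aquantile, and levels of different probes are not compared. Values on every array are given for called genes, for the 4 highest and 4 lowest of each group and for 10 set genes, and up to 5 called genes of each further list are named. The genes, groups, lists and motifs were chosen with earlier results of these data known. Counts, shares and medians over them depend on that choice and are given as descriptions. On simulated data of 23177 probes, 71 of 100 probes changed by 25% were recovered. So were 100 of 100 changed 1.5-fold and 100 of 100 changed 2-fold, and 28 of 299 calls were unchanged probes. That simulation held no dye effect and few changed probes, and its spread between arrays was set and not estimated from these data. Its rates may therefore not hold for these arrays. Alternatives covered background, normalization, the deposited table, the filter, the probe rule, dye and sex terms, separate channels and leaving out each array. Plots used matplotlib 3.10.9 (Python 3.11.15).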

Additional observations from a re-analysis of the deposited data

Results flagged for a closer look

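In 2 of the 39 genes tested, 1 of the 4 arrays lay far from the others, where chance places about 1 gene in 20 so. The log2 ratio of Cdt1 was -0.41 on replicate 4, against -0.07 to -0.02 on the other arrays. That of Mki67 was -0.066 on replicate 1, against 0.08 to 0.09 on the other arrays.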

How the results depend on the processing

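Under 16 alternatives, Ccnd2 was called higher every time, with log2 ratios of 0.40 to 0.70 and adjusted p in limma of 0.000142 to 0.0378. The number of cell-cycle genes called higher was 1 with the scanner software's ratios, with median centring, with the deposited value table, with no filter on dim probes and with separate channels without the replicate block that pairs the RNAs of an array (Ccnd2 each time). It was 5 with a sex term. The number called lower was 1 (Ccne1) with the sex term and with the mean of a gene's probes. Leaving out each array gave 1 to 3 higher and 0 to 1 lower, the 1 lower being Cdt1 without replicate 2. Over all genes, leaving out each array gave 1560 to 2492 higher and 1025 to 1784 lower. Of 624 values of these genes under the alternatives, 20 lost their call (Mcm2 or Rrm2), 7 gained one and 0 called values changed sign. The medians of the groups moved by less than their spread over the arrays. So did the S-phase minus mitotic difference between medians of fitted ratios, -0.02 in the main fit and -0.04 to -0.01 under the alternatives. That measure is not the mean of the differences on each array, which was -0.0043. With no filter, Aurkb had a ratio of -0.08 and Ccne2 of 0.07 (limma adjusted p of 0.598 and 0.729). The causes of these changes were not tested. With 4 arrays on 1 slide, changes of 25% can be missed.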
